A study of Mus musculus with 13 samples.

Results

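The 5 wild-type H3K27me3 libraries of mouse embryonic stem cells were compared with each other, with no knockout involved. They are 5 of the 13 libraries of the series, and they were split by the stem of the library name. The rmce stem holds 3 libraries, named rmce (WT replicate 1), rmceOld (replicate 4) and rmceNew (replicate 5), and the other group holds wt20 (replicate 2) and wt44 (replicate 3). Per the labels, all 5 are WT cells of 1 strain, a male CAST/B6 line with a recombinase-mediated cassette exchange (RMCE) site at Rosa26, and all had 3 days of doxycycline. What doxycycline induces, what Old and New stand for, and whether the stems are separate clones or cultures, the sources used here do not say. Among these 5 libraries Old and New occur only within the rmce stem, so the library set and the stem are partly confounded. Both words also occur in names of knockout libraries. The labels do not name separate cultures either, so the spread behind every p-value is one between libraries and can be technical.

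H3K27me3 is the trimethylated form of lysine 27 on histone H3, written by Polycomb repressive complex 2. In embryonic stem cells it lies over CpG-rich promoters of silent developmental regulators, among them the Hox genes, and it can spread at lower density over long domains. Rosa26 is a locus on chromosome 6 that is widely used to insert transgenes, and cassette exchange swaps DNA between recombinase sites placed there beforehand. The Gt(ROSA)26Sor gene lies at chr6:113067428-113077244 (GRCm38.p6, the assembly also called mm10).

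Of the 57905 regions used from the deposited table, 24049 (41.53%) lay on chromosome 6. The pattern that separated the wild-type libraries was the level of this chromosome. It was low in the plain rmce library and not in the other 2 libraries of the same stem. Promoter sequences from chromosome 6 regions are shown first, as examples of regions with a low and with a nearly even level in rmce; the pattern itself was spread over the chromosome. Regions with a lower level in the rmce library than in wt20 and wt44 (the fit of these 3 libraries is described further on) contained a RefSeq start site in 9 cases, and the 3 of smallest p are shown, with Hoxa10 from the longest region of the chromosome, whose level did not pass the test in that fit. Each line gives the 250 bases before the start site, 5′ to 3′ on the gene's strand, from RefSeq (GRCm38.p6), with CG dinucleotides in capitals.
0610040F04Rik: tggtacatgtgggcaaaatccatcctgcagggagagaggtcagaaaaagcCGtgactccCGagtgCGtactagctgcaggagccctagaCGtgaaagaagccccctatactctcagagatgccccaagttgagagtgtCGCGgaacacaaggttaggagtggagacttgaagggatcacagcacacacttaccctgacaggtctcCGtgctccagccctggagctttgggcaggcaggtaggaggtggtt
Srgap3: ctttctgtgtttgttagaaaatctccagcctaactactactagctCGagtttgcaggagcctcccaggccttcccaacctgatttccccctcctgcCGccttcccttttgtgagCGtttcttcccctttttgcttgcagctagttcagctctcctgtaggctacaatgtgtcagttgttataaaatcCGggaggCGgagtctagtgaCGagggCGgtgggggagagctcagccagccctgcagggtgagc
Pde1c: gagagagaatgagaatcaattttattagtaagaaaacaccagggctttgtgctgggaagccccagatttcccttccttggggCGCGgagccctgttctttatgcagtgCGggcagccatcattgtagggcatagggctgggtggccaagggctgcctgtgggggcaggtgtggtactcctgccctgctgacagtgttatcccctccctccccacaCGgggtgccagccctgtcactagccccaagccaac
Hoxa10: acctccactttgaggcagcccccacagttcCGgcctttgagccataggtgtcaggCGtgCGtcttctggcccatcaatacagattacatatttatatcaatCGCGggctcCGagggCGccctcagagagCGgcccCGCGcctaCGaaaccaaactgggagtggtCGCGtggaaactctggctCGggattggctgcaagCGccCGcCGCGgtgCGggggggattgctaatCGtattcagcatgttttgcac

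These windows lie at chr6:108660935-108661184 (0610040F04Rik, minus strand, an uncharacterized RNA gene within the Bhlhe40 region), chr6:112947267-112947516 (Srgap3, minus strand), chr6:56362393-56362642 (Pde1c, minus strand) and chr6:52234940-52235189 (Hoxa10, minus strand). The CG count, which reads the same on both strands, was 7, 7, 4 and 20. Over the 32817 promoters of the RefSeq table the median was 6, 92.13% held at least 1 CG, and 17.94% held as many as Hoxa10. The match is a description of 4 chosen windows.

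The libraries held 798466 to 1427771 promoter counts and 1818465 to 3134226 region counts, with wt20 the smallest and rmceNew the largest in both tables. Levels are given as CPM (counts per 1000000) of the counts off chromosome 6, scaled by TMM (trimmed mean of M-values), so that chromosome 6 itself does not enter the scaling. Enrichment differed between libraries. The share of promoter counts off chromosome 6 that fell in rows with an H3K27me3 region was 54.96% in rmce, 47.88% in rmceOld, 52.48% in rmceNew, 54.27% in wt20 and 52.42% in wt44. The label of embryonic stem cells was set against markers. The lineage regulators Gata6 (304.1 ± 23.1 CPM in the rmce stem, SD, n = 3) and Pax6 (249.3 ± 33.0) and the trophoblast regulator Cdx2 (388.4 ± 8.73) had high H3K27me3. Gata4 (21.8 ± 4.49), Sox17 (17.3 ± 0.499), Eomes (13.6 ± 2.14) and Elf5 (25.5 ± 0.952), other lineage markers, stood far lower, and the rows of Pax6, Sox17 and Eomes share bases with other rows. The pluripotency genes Pou5f1 and Sox2 had 27 and 42 counts in all 5 libraries together and were not tested, and Esrrb lay between 28.6 and 50.9 CPM. Nanog (0 counts) and Zfp42 (2 counts) each have 3 rows that overlap one another, and reads shared between rows were not counted, so no level can be read for them, nor for Pdgfra (13 counts in 4 overlapping rows). Of the fibroblast markers, Col1a1 stood at 98.9 ± 22.0 CPM, Col1a2 at 11.8 ± 2.92 and Thy1 at 59.0 ± 7.05. The trophoblast marker Tfap2c stood at 136.4 ± 4.77. The rows of Col1a2, Thy1 and Tfap2c share bases with other rows. H3K27me3 marks silent genes and is no measure of RNA.

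The first comparison was the stem as a whole. Across 34595 promoter rows, 1 row rose in the rmce stem and 0 fell (edgeR quasi-likelihood test, Benjamini-Hochberg adjusted p under 0.05), which is 0.00289% of rows, while 1732 rows (5.01%) had an unadjusted p under 0.05. Across 42067 regions, 1 rose and 0 fell, 0.00238% of regions, and 1262 (3%) had an unadjusted p under 0.05. DESeq2 called 0 rows in both tables, with 322 promoters and 276 regions at an unadjusted p under 0.05. The median log2 difference, rmce stem minus wt20 and wt44, was -0.03 over the promoters of chromosome 6 and 0.01 over the other promoters, and -0.03 and -0.00 over the regions.

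Both calls lie at 1 place, the ribosomal RNA related sequence Rn18s-rs5 on chromosome 17. The region chr17:39842973-39848922 (mm10), 5950 bp long, stood at 6708 CPM in rmce, 5455 in rmceOld and 5881 in rmceNew, against 4556 in wt20 and 3449 in wt44. The stems did not overlap there, and wt44 was the lowest library. The log2 difference was 0.59 (SE 0.08, adjusted p = 0.000136, edgeR quasi-likelihood test). The promoter row CT010467.1 (chr17:39844353-39847353) lies inside it and stood at 8909, 5618 and 7051 CPM in the rmce stem against 5641 and 4337, with a log2 difference of 0.53 (SE 0.06, edgeR adjusted p = 1.63e-12), although rmceOld was below wt20. The promoter call was lost, with log2 differences of 0.33 to 0.57, without rmce (edgeR adjusted p = 0.617), without rmceNew (0.0549), without wt44 (0.258), with a minimum count of 50 (0.995) and with DESeq2, where the adjusted p was 1. The region call was lost without rmceNew (0.0505), with a minimum count of 50 (0.959) and with DESeq2, while the log2 difference stayed at 0.61, 0.58 and 0.61. Ribosomal RNA genes exist in many near-identical copies, so reads counted here may come from other copies and the level is uncertain. The region held 0.662% of the region counts off chromosome 6 in rmce, 0.524% in rmceOld, 0.566% in rmceNew, 0.439% in wt20 and 0.337% in wt44, and 0.295% and 0.227% in the 2 WT total H3 libraries.

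No promoter of chromosome 6 passed the test in either direction. The lowest p among rises belonged to Resf1 (20.97, 17.23 and 21.05 CPM in rmce, rmceOld and rmceNew, against 8.98 and 1.31), Gm43164 (12.58, 18.95 and 20.20 against 1.497 and 6.56) and Clec4a4 (17.83, 35.32 and 26.10 against 10.48 and 10.50), with edgeR adjusted p-values of 0.362, 0.429 and 0.584. Resf1 encodes a repressor of retroelements, and Clec4a4 a C-type lectin receptor. Each had 1 to 8 counts in wt20 and wt44, and none of the 3 rows held a deposited region. Among falls the lowest p belonged to Gm4877 (27.27, 46.52 and 44.62 CPM against 79.33 and 74.82), 2010310C07Rik (123.7, 106.0 and 103.5 against 173.6 and 162.8) and Mogs (27.27, 26.71 and 16.84 against 49.39 and 32.81), with edgeR adjusted p-values of 0.429, 0.691 and 0.893. Mogs encodes a glucosidase of N-glycan processing. In each of these 6 rows the stems did not overlap. Over the 31921 genes tested, with 1 row each, that was the case in 21.7%, so it sets none of them apart.

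Off chromosome 6, the falls of smallest p were Gm48623, Ntn1 and Mafa, and they did not pass either. Ntn1 encodes netrin-1, an axon guidance cue. Its promoter stood at 271.6, 269.6 and 230.7 CPM in rmce, rmceOld and rmceNew and at 329.3 and 401.6 in wt20 and wt44 (log2 difference -0.51, SE 0.14, edgeR adjusted p = 0.444). The Ntn1 region (chr11:68381400-68393312) stood at 346.1, 387.1 and 358.7 CPM against 435.6 and 531.5 (log2 difference -0.41, SE 0.09, edgeR adjusted p = 1.00). It passed with an offset for level (edgeR adjusted p = 0.0153), with library totals (0.0498), with a term for Old or New (0.0149) and among the libraries with neither word (0.00942). Mafa, an activator of insulin transcription, stood at 203.4, 199.0 and 141.4 CPM against 263.4 and 265.1 (edgeR adjusted p = 0.584). Gm48623 had 6 to 22 counts. A second region of chromosome 11, at Arhgap23, stood at 65.6, 65.3 and 60.4 CPM against 94.7 and 101.0 (edgeR adjusted p = 1.00). At Ntn1 the wt44 library was the highest, and chromosome 11 as a whole stood higher in wt44, as given further on.

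At Dppa3, a maternal factor gene expressed in embryonic stem cells, 2 overlapping readouts differed in the same direction. The region at chr6:122624797-122626366, 58 bp from the gene, stood at 23.9 CPM in rmce, 21.8 in rmceOld and 19.5 in rmceNew, against 9.61 in wt20 and 8.47 in wt44. The 3 libraries of the rmce stem lay close together and the other 2 did as well. The log2 difference was 1.26 (SE 0.33) with an unadjusted edgeR p of 0.000459 and an adjusted p of 1.00, so it did not pass over 42067 regions, and it passed among the 3 libraries with neither Old nor New (adjusted p = 0.04). The promoter row of Dppa3, which shares bases with another row, stood at 60.8, 49.1 and 53.0 CPM against 34.4 and 27.6 (edgeR adjusted p = 0.893). The Add2 region, at chr6:86096852-86098615 within the gene of beta-adducin, stood at 17.4, 17.7 and 20.8 CPM against 9.61 and 8.47 (edgeR adjusted p = 1.00). The Frmd4b region, at chr6:97516268-97518070, had the opposite order, at 13.4, 12.1 and 13.0 CPM against 24.4 and 23.5 (edgeR adjusted p = 1.00). The Gm4877 region (chr6:42518839-42521123) stood at 11.4, 27.3 and 18.7 CPM against 36.2 and 33.2 (edgeR adjusted p = 1.00), and there rmce was also the lowest within its stem. These 4 regions were picked for the smallest p on chromosome 6. That choice favours regions where the stems do not overlap, so nothing is read from the stems being apart there.

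The spread between single libraries, set against counting error, was alike across stems and within them. Over the regions off chromosome 6 the SD of the log2 ratio of 2 libraries was 0.486 to 0.51 in the 3 pairs within the rmce stem, 0.593 between wt20 and wt44, and 0.541 to 0.564 in the 6 pairs across stems. The 2 shallowest libraries gave the widest pair. Divided by the SD expected from counting alone, the values were 1.11 to 1.15 within the rmce stem, 1.11 for wt20 and wt44 and 1.11 to 1.15 across stems. Over the 6583 regions off chromosome 6 with a mean of 50 counts or more, rmce and rmceOld had the largest ratio of the 10 pairs, 1.42, and wt20 and wt44 the smallest, 1.18. Each of these is 1 library against 1 and carries no test.

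The spread of single regions on chromosome 6 was not set against counting error. By its total, chromosome 6 differed more between the libraries than any other chromosome did. It held 18.36% of region counts in rmce, 24.32% in rmceOld, 23.71% in rmceNew, 22.83% in wt20 and 22.43% in wt44. The rmce library was below the other 4, which lay between 22.43% and 24.32%. In the promoter table the shares were 8.11%, 9.56%, 10.11%, 10.07% and 9.22%, again with rmce lowest. In the 2 WT total H3 libraries the same regions of chromosome 6 took 28.92% and 29.07% of the region counts. As stems, the groups were indistinguishable. The share was 22.1 ± 3.28% in the rmce stem (SD, n = 3) and 22.6 ± 0.282% in wt20 and wt44 (SD, n = 2), a difference of -0.499 points (exact permutation p = 1, two-sided). With 3 libraries against 2 there are 10 groupings, and the smallest p this design allows is 0.1. Without the rmce library the difference turned to 1.39 points (exact permutation p = 0.333), so its sign rested on 1 library.

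**Figure D1:**
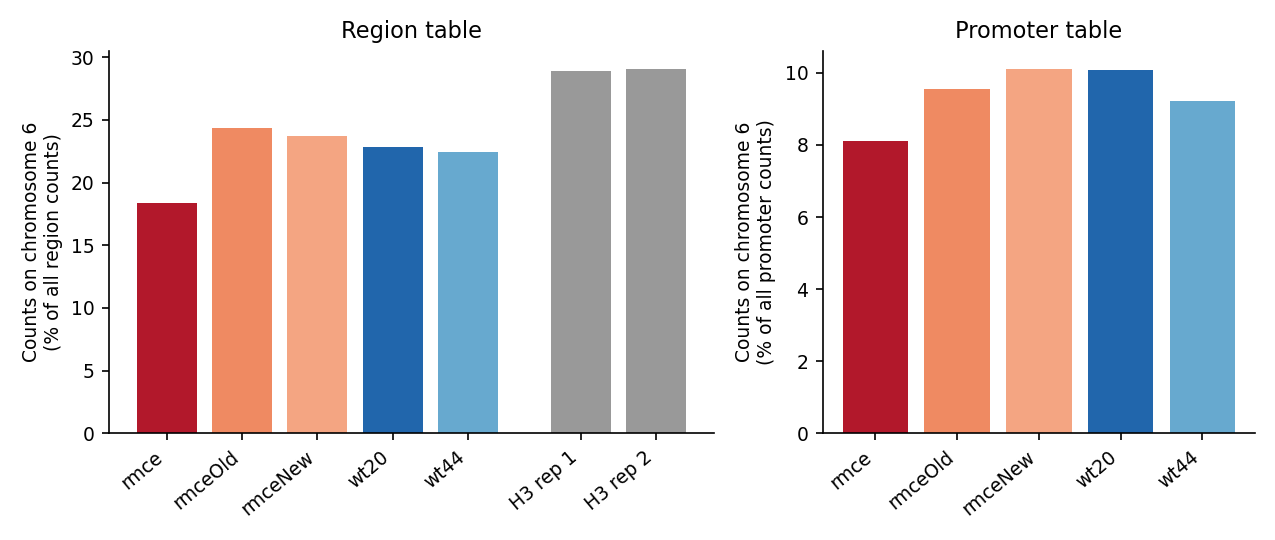
Share of all counts that lie on chromosome 6 in each wild-type H3K27me3 library (red shades, rmce stem; blue shades, wt20 and wt44) for the region table (left, with the 2 WT total H3 libraries in grey) and the promoter table (right); each bar is 1 library. The rmce bar is the lowest of the 5 H3K27me3 bars in both tables, 18.36% and 8.11%.

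As a level, log2 of the counts on chromosome 6 over those on the other autosomes, the regions gave -2.14 in rmce, -1.62 in rmceOld, -1.67 in rmceNew, -1.74 in wt20 and -1.77 in wt44, and -1.29 and -1.28 in the WT total H3 libraries. In linear terms chromosome 6 in rmce differed by -30.06% from rmceOld, by -27.66% from rmceNew, by -23.99% from wt20 and by -22.25% from wt44. The 4 other libraries spanned 0.153 on the log2 scale, and rmce lay 0.363 below the lowest of them. The stem means were -1.81 ± 0.285 and -1.76 ± 0.0231, a difference of -0.05 (exact permutation p = 1, two-sided), which became 0.11 without rmce. In promoter rows rmce was 0.203 below the lowest other library, wt44. In these bulk libraries a lower level in every cell and a loss in a share of the cells, or on 1 of the alleles, cannot be told apart. The labels match no WT total H3 library to rmce, so its level could not be set against total H3 of its own. By the enrichment given above rmce was highest, close to wt20, and rmceOld lowest. By the share of promoter counts off chromosome 6 in the 1038 rows of highest level the libraries lay closer together, at 25.27% in rmce, 24.21% in rmceOld, 25.14% in rmceNew, 25.10% in wt20 and 25.86% in wt44. The part of enrichment in the chromosome 6 level was not tested.

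**Figure D2:**
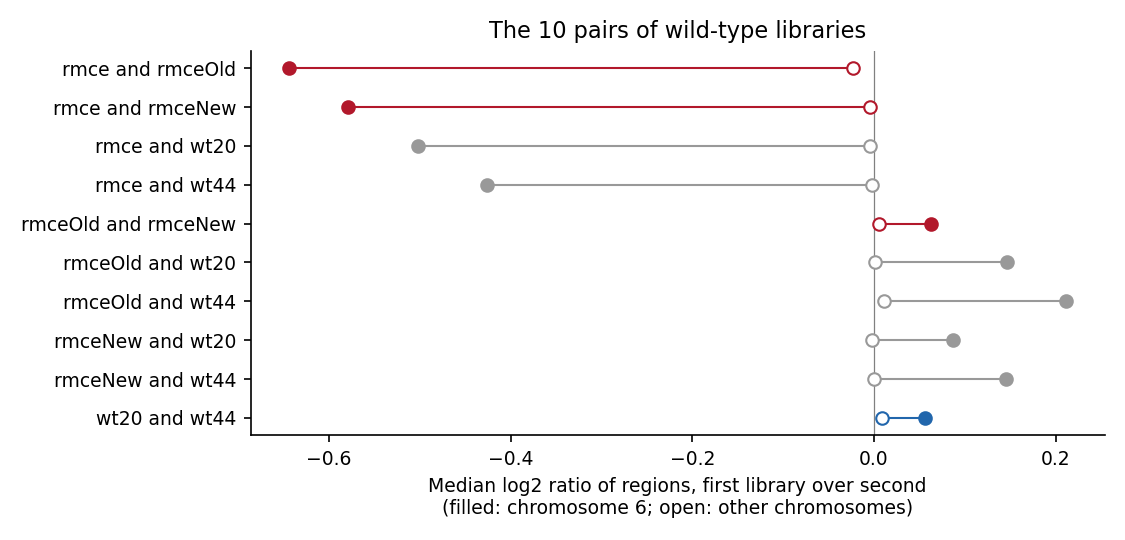
Median log2 ratio of H3K27me3 regions for each of the 10 pairs of wild-type libraries, first library over second (red, both in the rmce stem; blue, wt20 and wt44; grey, across stems); filled circles are regions of chromosome 6 and open circles regions of the other chromosomes. The 4 pairs with rmce reach -0.43 to -0.64 on chromosome 6, while every open circle lies within 0.03 of 0.

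By the median region, the ratio of rmce to rmceOld was -0.64 on chromosome 6 and -0.02 elsewhere, and its ratio to rmceNew, wt20 and wt44 was -0.58, -0.50 and -0.43 on chromosome 6. The pairs without rmce differed by less. The ratio of rmceOld to rmceNew was 0.06, that of wt20 to wt44 was 0.06, and those across stems were 0.09 to 0.21, with both libraries of the rmce stem above both others. On the other chromosomes no pair had a median beyond 0.03. By total, chromosome 6 spanned 0.556 on the log2 scale over the 5 libraries, whereas chromosomes 17 and 11 spanned 0.121 and 0.12 and every other chromosome 0.0875 or less. Without the Rn18s-rs5 region chromosome 17 spanned 0.0296.

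The deficit of the rmce library varied along the chromosome. In 10 Mb bins, rmce was the lowest library in 15 of 15 bins, and the stems overlapped in every one. Being lowest was not particular to chromosome 6, since rmce was the lowest library on 14 of the 20 chromosomes, in 115 of the 257 bins off chromosome 6 (44.75%) and in 11 of the 13 bins of chromosome 11, where it reached -0.13. Its level relative to the geometric mean of the 5 libraries was -0.18 in the first 10 Mb, -0.25 from 10 to 20 Mb, -0.21 from 20 to 30 Mb and -0.24 from 30 to 40 Mb. From 40 Mb on it lay between -0.30 and -0.51, and it was lowest from 100 to 110 Mb (-0.51), from 70 to 80 Mb (-0.45) and from 110 to 120 Mb (-0.45), the bin that holds Gt(ROSA)26Sor. By distance from that gene, it was -0.44 within 1 Mb, -0.48 from 1 to 5 Mb, -0.42 from 5 to 10 Mb, -0.42 from 10 to 20 Mb, -0.37 from 20 to 40 Mb, -0.33 from 40 to 80 Mb and -0.21 from 80 to 120 Mb. The highest library in 14 of the 15 bins was rmceOld, and it lay above rmceNew in all 15.

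**Figure D3:**
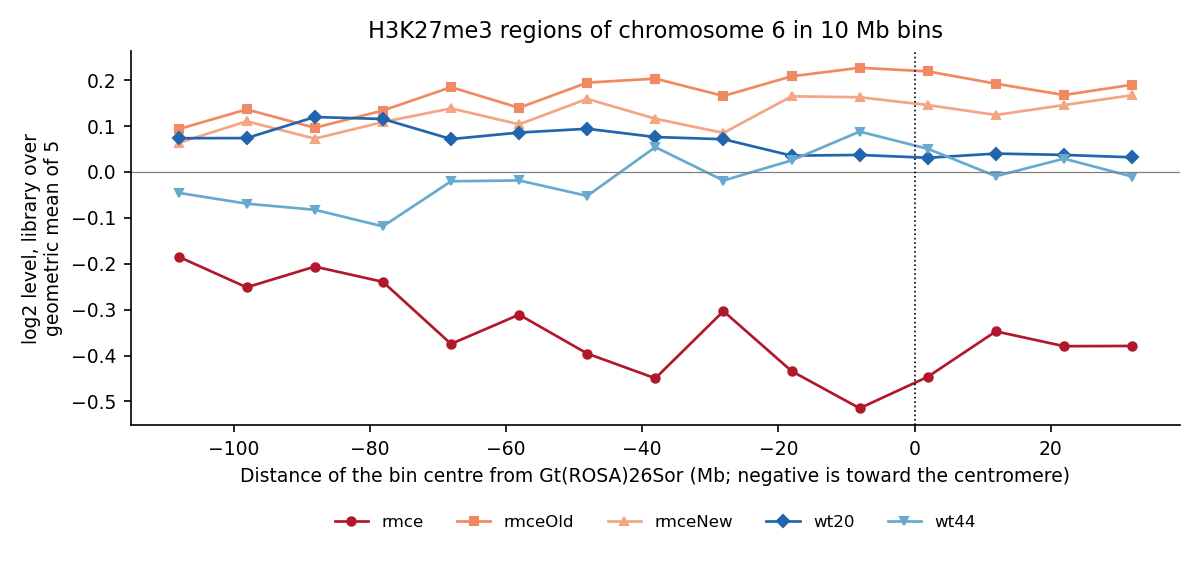
Level of chromosome 6 regions in 10 Mb bins for each wild-type library, as log2 over the geometric mean of the 5 libraries, against the distance of the bin centre from Gt(ROSA)26Sor (dotted line; negative values toward the centromere). The rmce line is lowest in 15 of 15 bins and falls from -0.18 in the first bin to -0.51 next to Gt(ROSA)26Sor, and wt44 lies below wt20 in 13 of the bins and above it in the 2 bins nearest to Gt(ROSA)26Sor.

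A second, smaller gradient separated wt44 from wt20. From 30 to 40 Mb wt44 stood at -0.12 and wt20 at 0.12, and from 20 to 30 Mb at -0.08 and 0.12. From 100 to 110 Mb the order was turned, with wt44 at 0.09 and wt20 at 0.04, and from 110 to 120 Mb it was 0.05 and 0.03. In 13 of the 15 bins wt44 was below wt20. Across the 15 bins the difference wt44 minus wt20 and the level of rmce had a Spearman correlation of -0.789, and the level of rmce and the ratio of H3K27me3 to total H3 one of 0.575. The bins are stretches of 1 chromosome read in the same libraries, the level of rmce is set against a mean that holds wt20 and wt44, and the counts of rmce also enter the ratio to total H3, so both values are descriptions.

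By length of the single region, the deficit was larger in short regions than in long ones. Across the 15 bins the level of rmce and the median region length had a Spearman correlation of -0.239, the opposite sign. On chromosome 6 rmce stood at -0.45 in regions of up to 500 bp (9326 regions), -0.45 from 500 to 1000 bp, -0.43 from 1000 to 2000 bp, -0.37 from 2000 to 5000 bp, -0.25 from 5000 to 10000 bp and -0.19 in the 78 regions over 10000 bp. On the other chromosomes the same classes stood between -0.08 and 0.01. The regions on the deposited WT-specific list of chromosome 6 stood at -0.48 in rmce, those on the knockout-specific list at -0.41 and those on the shared list at -0.35. With chromosome 6 regions ranked by H3K27me3 over total H3, rmce stood at -0.30 in the highest 6012 regions and between -0.40 and -0.44 in the 3 lower classes of the same size.

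At promoters the deficit was largest in the middle classes of level. In promoter rows of chromosome 6 with a mean of up to 10 CPM rmce stood at -0.16, and from 10 to 20 CPM at -0.18, 0.0122 below wt44. In those with a mean of 20 to 40 CPM (1107 rows) rmce stood at -0.27, 0.211 below the next lowest library, and at 40 to 80 CPM (769 rows) at -0.27, 0.28 below it. From 80 to 160 CPM (107 rows) rmce stood at -0.08, above rmceOld at -0.12. In the 63 rows over 160 CPM, Hoxa10 among them, rmce stood at -0.05 and rmceOld was the lowest at -0.14. Off chromosome 6, rows of 40 to 80 CPM stood at 0.11 in rmce and at -0.17 in rmceOld, and rows of 80 to 160 CPM at 0.11 and -0.18. From 80 to 160 CPM rmce was thus lower on chromosome 6 than elsewhere, and rmceOld was not. Over 160 CPM the rows off chromosome 6 stood at 0.02 in rmce, so the step between chromosome 6 and the rest was small in that class. Promoter rows of chromosome 6 that hold no region had values of -0.21 in rmce, -0.11 in wt44, 0.00 in rmceOld, 0.15 in wt20 and 0.17 in rmceNew, relative to such rows elsewhere.

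**Figure D4:**
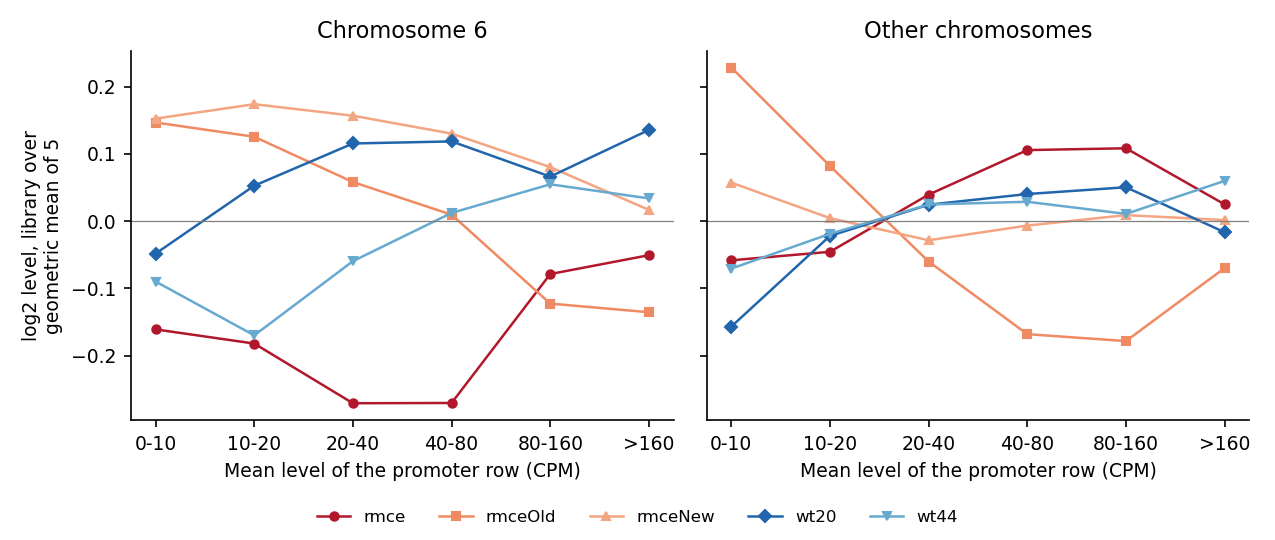
Level of promoter rows in each wild-type library, as log2 over the geometric mean of the 5 libraries, in classes of the row's mean level, for chromosome 6 (left) and all other chromosomes (right). On chromosome 6 the rmce line is lowest up to 80 CPM, at -0.27 from 20 to 80 CPM, whereas elsewhere it is the highest from 20 to 160 CPM.

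Among the wild-type libraries Old and New occur only in the rmce stem. The stem was therefore also tested among the 3 libraries with neither word, rmce against wt20 and wt44. With 1 library on one side, its spread was assumed to equal that of the other 2. Of 39943 regions tested, 128 (0.32%) passed, 17 higher and 111 lower in rmce (edgeR quasi-likelihood test), and 92 of the 128, namely 1 rise and 91 falls, lay on chromosome 6. Of 31636 promoter rows 7 (0.0221%) passed, 4 higher and 3 lower, and 2 of the falls lay on chromosome 6. The median log2 difference was -0.52 over the 16055 chromosome 6 regions and -0.02 over the others. At the 91 falls on chromosome 6 rmceOld and rmceNew, which this fit did not use, lay above rmce as well, as they did at the 20 falls elsewhere. The falls were chosen for a low value in rmce, which largely fixes that order, and nothing is read from it. Over all chromosome 6 regions in that fit rmce was the lowest of the 5 libraries in 62.02%, and over the other chromosomes in 20.23%. The term for Old or New over all 5 libraries, which rests on the same libraries for the stem, gave 61 falls on chromosome 6, of which 59 were among the 91. With 1 library on one side, a difference of that library and one of the stem cannot be told apart in this fit.

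Of these falls, 45 lay within 10 Mb of Gt(ROSA)26Sor, 1.21% of the 3732 regions tested there, and 15 lay from 10 to 20 Mb (0.546% of 2747). Beyond, 0.322% fell from 20 to 40 Mb, 0.379% from 40 to 80 Mb and 0.104% (1 of 966) from 80 to 120 Mb. Median counts per region were 15.2 to 17.6 in these classes, lowest from 80 to 120 Mb. Over all regions of chromosome 6 the median length was 822 bp within 1 Mb of Gt(ROSA)26Sor and 531 bp from 80 to 120 Mb. The part of counts and length in these shares was not tested. The median distance from Gt(ROSA)26Sor was 10.7 Mb for the falls and 24.4 Mb for all chromosome 6 regions tested. Their median length was 2251 bp, against 851 bp for all, and their median log2 difference -1.46, against -0.52 for all. Choosing falls by p favours regions of many counts and of large differences. Neither value is therefore read as a trait of the deficit, which was larger in short regions.

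The region over Bhlhe40, a circadian and stress-responsive transcriptional repressor, spans chr6:108656096-108671745 and had the smallest p among these falls. It stood at 222.8 CPM in rmce, 374.4 in rmceOld, 349.5 in rmceNew, 333.6 in wt20 and 368.0 in wt44, a log2 difference from wt20 and wt44 of -0.65 (SE 0.12, edgeR adjusted p = 0.000589). The region at Il5ra, the receptor subunit for interleukin-5 (chr6:106717405-106721226), stood at 15.9 CPM in rmce and 43.0 to 47.5 in the other 4, a log2 difference of -1.55 (SE 0.30, edgeR adjusted p = 0.00105). The region within Hrh1, the histamine H1 receptor gene (chr6:114415777-114430825, 1.35 Mb from Gt(ROSA)26Sor), stood at 145.2 CPM in rmce and 222.8 to 237.8 in the others (log2 difference -0.68, edgeR adjusted p = 0.0025). The region within Atg7, a gene of autophagosome formation, stood at 24.4 CPM and 57.3 to 63.8 in the others (log2 difference -1.27, edgeR adjusted p = 0.00315). Farther away, the Vax2os region (chr6:83690828-83701764, 29.4 Mb from Gt(ROSA)26Sor) stood at 177.5 CPM and 246.6 to 291.8 (log2 difference -0.67, edgeR adjusted p = 0.00105). At each of these 5 regions rmce was the lowest library, an order that the choice of falls largely fixes. At Vax2os rmceOld (261.1 CPM) and rmceNew (246.6) also lay below wt20 (275.1) and wt44 (291.8).

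Off chromosome 6, regions of that fit were picked after their values were seen, and the place of rmceNew varied among them. How often rmceNew lay with rmce was not counted. At Gm12506 rmceNew (45.2 CPM) lay near rmceOld (50.1), with 24.4 in rmce, 63.6 in wt20 and 63.8 in wt44. The region at Vegfa, the gene of a vascular growth factor, stood at 76.1 CPM in rmce and 85.1 in rmceNew against 155.8 in rmceOld, 159.8 in wt20 and 125.1 in wt44 (log2 difference -0.89, SE 0.17, edgeR adjusted p = 0.00105). At Cacna1a, a calcium channel gene, rmce (56.2 CPM) and rmceNew (72.1) were also the 2 lowest, with 130.0 in rmceOld, 105.0 in wt20 and 117.9 in wt44. At Tbx3, a T-box regulator, rmce was the lowest library, at 663.4 CPM against 821.1 to 945.7 in the others (log2 difference -0.42). The region at Id3, an inhibitor of basic helix-loop-helix factors, was highest in rmce (285.0) and rmceNew (238.4), with 170.9 to 201.9 in the others (edgeR adjusted p = 0.00276).

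In the chromosome 6 regions that hold the promoters printed above, rmce was the lowest library. Except at Hoxa10, the choice of falls largely fixes that order. The Srgap3 region (chr6:112944891-112949042), at the promoter of a neuronal signaling gene, stood at 28.8 CPM in rmce, 62.2 in rmceOld, 69.0 in rmceNew, 61.4 in wt20 and 62.5 in wt44 (log2 difference -1.09, edgeR adjusted p = 0.0144). The Pde1c region (chr6:56359942-56363855), at a cyclic nucleotide phosphodiesterase gene, stood at 41.8, 76.9, 71.2, 82.8 and 73.0 CPM in the same order (log2 difference -0.89, edgeR adjusted p = 0.032). The region that holds the Hoxa10 promoter is the longest of chromosome 6, 133062 bp over 11 HoxA genes (chr6:52146181-52279242). It stood at 6838 CPM in rmce, 7839 in rmceOld, 7743 in rmceNew, 7978 in wt20 and 7614 in wt44. Here too rmce was the lowest library, by a smaller step, with a log2 difference among the 3 libraries of -0.18 (SE 0.05, edgeR adjusted p = 0.0922). As stems the 5 libraries gave 7473 ± 552 CPM (SD, n = 3) and 7796 ± 257 (SD, n = 2), a log2 difference of -0.06 (SE 0.06, edgeR adjusted p = 1.00). The other 2 of the 3 longest regions, at Tet3 and Gm52919, stood in rmce at 474.4 and 445.6 CPM and in the other libraries at 532.8 to 602.8 and at 522.9 to 569.7. Tet3 encodes a 5-methylcytosine dioxygenase. At its region the stems did not overlap, by 584.4 CPM in rmceOld against 586.2 in wt44, and it did not pass the stem test (log2 difference -0.16, SE 0.09).

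**Figure D5:**
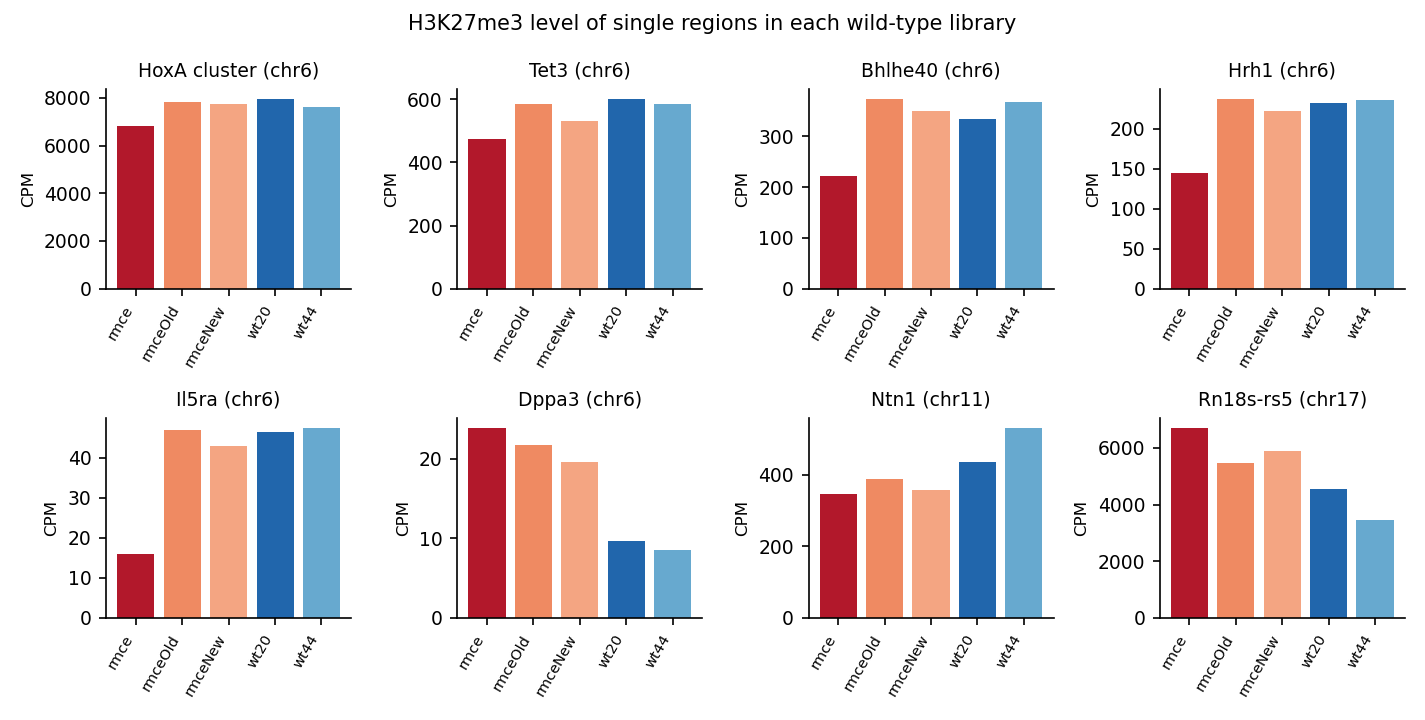
Level in CPM of 8 H3K27me3 regions in each wild-type library (red shades, rmce stem; blue shades, wt20 and wt44); each bar is 1 library and the axes start at 0. Bhlhe40, Hrh1 and Il5ra, chosen for a low value in rmce, are lowest in that library, and the HoxA region spans 6838 to 7978 CPM. Dppa3, Ntn1 and Rn18s-rs5 were chosen for a small p in the stem test, which favours stems that are apart, as they are there. At Tet3 the stems are apart by 584.4 CPM in rmceOld against 586.2 in wt44. The share of all regions with the stems apart was not counted, so nothing is read from this.

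The lists of genes were read at promoters, with 1 row per gene. None of the members of any list passed the stem test in either direction. In the HoxA cluster, whose genes specify position along the body axis, 8 of 12 genes were tested, and 2 had an unadjusted p under 0.05, against 1594 of all 31921 genes tested (4.99%). The median log2 difference was -0.09, against 0.01 over all genes tested and -0.03 over those of chromosome 6. The median of rmce relative to the mean of the 5 libraries was -0.00, whereas over all 2394 genes of chromosome 6 it was -0.23. Hoxa10 stood at 509.7, 483.3 and 526.2 CPM in rmce, rmceOld and rmceNew and at 598.7 and 526.3 in wt20 and wt44 (log2 difference -0.15, SE 0.12, edgeR adjusted p = 0.985). Hoxa5 stood at 476.1, 387.7 and 415.0 against 464.0 and 468.6, with rmce the highest of the 5. The Hox clusters off chromosome 6 (28 of 29 tested) had a median difference of -0.08 and a median of 0.01 in rmce. Hoxb5 stood at 465.6, 446.2 and 520.3 CPM against 538.8 and 556.5, and Hoxd10 at 449.9, 455.7 and 503.4 against 553.8 and 477.8.

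Other developmental regulators of chromosome 6 (25 of 30 tested) had a median difference of -0.17 and a median of -0.10 in rmce. Gata2, a regulator of blood stem cells, stood at 567.3, 522.0 and 551.4 CPM against 577.7 and 510.6, and Foxp1, a forkhead factor, at 417.4, 433.3 and 453.8 against 464.0 and 487.0. Genes of channels, receptors and synapses on chromosome 6 (20 of 27 tested) had a median of -0.18 in rmce. The Hrh1 promoter, at 184.6 CPM in rmce, was below rmceOld (233.5), rmceNew (257.6), wt20 (260.4) and wt44 (261.2), whereas Grm8, a glutamate receptor gene nearer the centromere, was highest in rmce (288.4) and lowest in rmceNew (244.1). The vomeronasal, taste and lectin receptor genes (141 of 174 tested), sensory and immune genes that lie in arrays, had a median of -0.32 in rmce, and rmce was the lowest library at 81 of the 141. Over all genes of chromosome 6 it was the lowest at 1163 of 2394, and off it at 5564 of 29527. In that list Clec2l stood at 173.0 CPM in rmce and 122.3 to 173.6 in the others, and Tas2r135 at 49.3 in rmce and 46.4 to 88.4 in the others.

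Near the cassette locus the picture was mixed. Of the 91 genes with a promoter row within 2 Mb of Gt(ROSA)26Sor, 69 were tested, with a median of -0.26 in rmce and a median stem difference of 0.01. Among the 6 nearest tested genes on each side, Lhfpl4 lay at 147.9, 145.6 and 158.3 CPM in the rmce stem against 139.2 and 150.9, and Cpne9 at 135.3, 149.9 and 188.6 against 184.1 and 174.6. The rmce library was lowest at 4 of these 12 genes and at 37 of the 69. Over all genes tested on chromosome 6 it was lowest at 1163 of 2394, so these counts do not set the locus apart. Atp2b2, a plasma membrane calcium pump gene in the same window, stood at 156.3, 149.9 and 183.5 CPM against 208.0 and 202.1 (edgeR adjusted p = 0.972).

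Imprinted genes, which are expressed from 1 parental allele, did not pass in either place. On chromosome 6 (12 of 14 tested) the median was -0.23 in rmce and 0.20 in wt20. Klf14 stood at 326.1, 338.6 and 366.2 CPM in the rmce stem against 453.5 and 334.7, so that wt20 was the high library, and Nap1l5 at 90.2, 105.1 and 113.6 against 127.2 and 124.7 (edgeR adjusted p = 0.972). Off chromosome 6 (19 of 29 tested) Grb10, an adaptor that restrains insulin signaling, stood at 328.2, 340.3 and 325.8 CPM against 398.1 and 418.7 (log2 difference -0.30, edgeR adjusted p = 0.969), and Gnas, whose row shares bases with another row, at 210.2 to 254.6 with the stems overlapping. Genes around Nanog (8 of 9 tested) had a median of -0.24 in rmce. Among them Slc2a3, a glucose transporter gene, stood at 64.0 CPM in rmce and 82.3 to 99.8 in the others. Of the pluripotency genes off chromosome 6 (12 of 22 tested) Klf4, one of the reprogramming factors, stood at 74.5, 114.6 and 117.9 CPM against 142.2 and 133.9 (log2 difference -0.42, edgeR adjusted p = 0.972), and Prdm14 at 135.3, 124.9 and 101.9 against 97.3 and 141.8.

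The remaining lists lie mostly off chromosome 6. Neural regulators (45 of 49 tested) had a median stem difference of -0.09, with Neurog1 at 497.9 to 579.2 and Neurog2 at 428.1 to 567.2 CPM over the 5 libraries. Mesoderm and endoderm regulators (40 of 44 tested) had -0.04, with Tbx1 at 552.2 to 684.0 and Foxc2 at 559.9 to 603.2. In both lists rmceOld had the lowest median, -0.11 and -0.16, which goes with its lower enrichment, whose part was not tested. Polycomb subunit genes (16 of 31 tested) had 0.09, with Bmi1 at 351.5 to 444.5 CPM. Trophoblast genes (11 of 18 tested) had 0.03, with Cdx2 at 379.9 to 455.5 and Tfap2c, whose row shares bases with another row, at 130.9 to 187.1. Fibroblast genes had the largest median difference, 0.49, over 9 of 17 tested, at a median of 17.3 CPM, with 3 at an unadjusted p under 0.05 (4.99% of all genes tested). The 2 of highest level in that list, Col1a1 and Thy1 (a shared row), went the other way, at -0.31 and -0.25. Of 20 housekeeping genes 2 were tested, B2m at 56.9 to 82.7 and Psmb2 at 7.48 to 22.0 CPM.

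Over the 31921 genes tested, with 1 row each, the stems did not overlap in 21.7%, so the next count sets no promoter apart. At 7 of the 8 promoters of widest range over the 5 libraries, from the top 3% by level, they overlapped, all but Mafa. On chromosome 6 these were Lbx2 (118.0 CPM in rmceOld to 194.0 in rmce), Chn2 (127.9 in rmce to 208.0 in wt20), Il17ra (116.3 in rmceOld to 176.2 in rmce) and Gm27866 (186.9 in rmceOld to 279.6 in wt44), ranges of 1.5 to 1.64-fold. Off chromosome 6, after CT010467.1 at 2.05-fold, they were 6330409D20Rik (110.3 in rmceOld to 220.2 in rmce), Mafa and Id3 (157.6 in rmceOld to 282.1 in rmce), at 2.00, 1.88 and 1.79-fold. At 5 of these 8 promoters rmceOld was the lowest library.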

How the data were processed

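H3K27me3 (antibody Abcam ab6002) and total H3 were measured by ChIP-seq in mouse embryonic stem cells fixed with formaldehyde. The deposited tables hold raw read counts. Per the file headers the authors counted promoter rows with featureCounts, without strand and without assigning a read to more than 1 row; Bowtie2, MACS2, bedtools and Subread are named with build mm10 in the submitters' processing notes, without roles. Column names carry the tag b6 and a mapping quality of 30; the sources used here do not say if that means reads of 1 or of both alleles, nor how the regions were called. The deposited union holds regions of both genotypes, and regions on the knockout list were selected on cells not compared here.

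Of 77527 promoter rows 1713 of chromosome Y and 37 of chromosome M, and of 57909 regions 4 of chromosome M, were left out. Of the 75777 rows used, 39735 share a base with another row. Symbols of 38650 of 53664 genes matched RefSeq. The 4 promoter columns of knockout libraries were not used. The test was that of edgeR 4.0.16 (R 4.3.3; quasi-likelihood F test; filterByExpr, minimum count 10, total 15; TMM from rows off chromosome 6; Benjamini-Hochberg; threshold 0.05) and checked on simulated data. Chromosome shares and levels were compared by exact permutation. Pair ratios used a pseudocount of 0.5 counts. DESeq2 1.42.0, limma 3.58.1 (level offset), other scalings, filters, row sets and leaving out each library were alternatives. Summaries were made in Python 3.11.15 with pandas 2.3.3, numpy 2.4.6 and scipy 1.17.1, and plots with matplotlib 3.10.9.

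Members and lists were chosen with earlier results of these data known. Named promoters were, on chromosome 6 and off it, up to 5 rises and 5 falls of smallest p that passed, or, with none, the 3 of smallest p; in each list the members that passed (at most 4) or the 2 of highest level; and, of the top 3% by level, the 4 of widest range. Named regions, of at least 20 mean counts, were those that passed and the longest 3 of chromosome 6. The other regions, the Dppa3 promoter, the regions of the 3-library fit and the printed promoters were chosen after their values were seen. Of the promoters this rule picked, 2 are not reported here.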

Additional observations from a re-analysis of the deposited data

Results flagged for a closer look

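The 5 wild-type libraries are 1 group in the labels, and 88 values were checked for a library whose gap to the next exceeds 0.71 of the range of the 5 (Dixon's 95% value). Chance gives about 1 in 20, and 3 were found. On chromosome 11, wt44 held 10.85% of the region counts off chromosome 6 and the other 4 libraries 10.08% to 10.16%. Relative to the mean of the 5 libraries wt44 lay between 0.02 and 0.13 (log2) in the 13 bins of 10 Mb of that chromosome, and it was the highest library in 11 of them. In promoter rows wt44 stood at 0.08 where a region was present and at 0.04 where none was. The cause was not tested. On chromosome 19, wt20 held 3.75%, against 3.67% to 3.69% in the others. At the B2m promoter rmceOld stood at 56.9 CPM and the others at 76.5 to 82.7. The chromosome 6 level of rmce, with a gap of 0.704 of the range over regions and 0.577 over promoters, did not reach the threshold.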

How the results depend on the processing

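The number of promoters that passed the stem test, 1, became 0 with DESeq2 and with a minimum count of 50, 2 with library totals, with the level offset and with a term for Old or New, and 7 among the libraries with neither word, and it ranged from 0 to 3 when 1 library was left out. The number of regions, 1, became 0 with DESeq2 and with a minimum count of 50, 2 with TMM from all rows, 3 with library totals, with the level offset and with an offset for chromosome 6, 87 with a term for Old or New and 128 among the libraries with neither, and it ranged from 0 to 2 when 1 library was left out. The difference in chromosome 6 share ranged from -1.6 to 1.39 points and that in level from -0.15 to 0.11 when 1 library was left out, reversed in both cases only without rmce. The deficit of rmce against the mean of the other 4, -4.96 points of region counts and -0.44 in level, was -1.63 points and -0.29 over promoters, -6.44 points without the 1% of regions with the highest count, and -0.54 as a median of row ratios. A denominator of counts off chromosome 6 was chosen after seeing the data and kept the direction of the share difference. Of 1045 values of 67 named promoters and regions under alternatives, 955 were classed as the same and 74 as moved. A further 8 lost and 8 gained a call, and 0 reversed. Counting error limits the rows of few counts.

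No paired analysis was possible because the labels give no pairing between the 2 groups.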
